A study of Mus musculus with 4 samples.

Results

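*Bmp4*, *Gdf6*, *Nog*, *Eng*, *Acvrl1*, *Bmpr2*, *Smad6*, *Smad7*, *Id1* and *Id3* are 10 genes of the bone morphogenetic protein (BMP) and transforming growth factor-beta (TGF-beta) pathways, chosen by name from the 18767 genes of the count table. All 10 were in the table and had counts in every library. They were measured by single-cell RNA-seq (scRNA-seq) of CD31+ CD45- cells sorted from mouse aortas, as 4 libraries. GEO's genotype label was Jag1 ECKO for 2 of them and Jag1 ECWT for the other 2. The Jag1 ECKO mice were Jag1 fl/fl with the tamoxifen-inducible Cdh5 Cre-ERT2 transgene, whose *Cdh5* promoter is active in endothelial cells (EC), and the Jag1 ECWT controls were Jag1 fl/fl without Cre. The background strain was C57BL/6J, and mice of both genotypes are described as male, 1.5 to 3 months old and given 2 mg of tamoxifen daily for 5 days in the general methods of the study, which do not restate this for the libraries. The labels do not say how many aortas entered a library or whether the 2 libraries of a label came from different mice. The p-values between labels therefore measure the spread between these libraries, which may be technical. Those of cells compared within libraries measure how the difference varies between the same libraries, with the same limit.

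BMP ligands such as BMP4 and GDF6 bind pairs of type I and type II receptors, which phosphorylate SMAD1, SMAD5 and SMAD9 proteins that then act on DNA with SMAD4. In EC the type I receptor ALK1 (gene *Acvrl1*), the type II receptor BMPR2 and the co-receptor endoglin (gene *Eng*) form the arm of the pathway that is mutated in hereditary haemorrhagic telangiectasia and heritable pulmonary arterial hypertension. NOG (noggin) binds BMP ligands outside the cell, SMAD6 and SMAD7 inhibit the signal inside it, and *Id1* and *Id3* are textbook target genes of BMP signaling.

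The promoters of *Smad6*, *Eng*, *Id3* and *Bmp4* are shown first because SMAD proteins bind short DNA motifs. RefSeq promoter sequences (GRCm38.p6) were matched for 5 of the 10 genes, these 4 and *Bmpr2*, and those of *Id1*, *Acvrl1*, *Nog*, *Gdf6* and *Smad7* were not analysed here. Each window holds 150 bases before the transcription start and 4 after it, printed 5' to 3' along the gene's strand. Starts are those of RefSeq. For *Id3* and *Bmpr2* they lie inside the GENCODE gene, whose position is given further on, so these windows lie within it. Capitals mark GTCT or its reverse complement AGAC, the SMAD half-site, searched on both strands.
Smad6 (chr9:64022056-64022209, minus strand): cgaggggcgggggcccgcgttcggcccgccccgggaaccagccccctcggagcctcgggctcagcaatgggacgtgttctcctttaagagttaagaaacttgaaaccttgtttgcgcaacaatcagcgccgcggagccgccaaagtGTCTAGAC
Eng (chr2:32646445-32646598, plus strand): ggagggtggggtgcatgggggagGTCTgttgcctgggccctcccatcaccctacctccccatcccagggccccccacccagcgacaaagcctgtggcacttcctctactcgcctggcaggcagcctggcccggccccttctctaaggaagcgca
Id3 (chr4:136143672-136143825, plus strand): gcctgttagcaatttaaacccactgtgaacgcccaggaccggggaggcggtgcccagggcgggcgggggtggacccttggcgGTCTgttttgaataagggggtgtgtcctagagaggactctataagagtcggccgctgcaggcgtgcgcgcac
Bmp4 (chr14:46390666-46390819, minus strand): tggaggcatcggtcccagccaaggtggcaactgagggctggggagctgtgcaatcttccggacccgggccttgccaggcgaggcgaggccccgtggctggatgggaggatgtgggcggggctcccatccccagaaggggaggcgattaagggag
The *Smad6* window held 2 half-sites, which join into the 8-base palindrome GTCTAGAC across the transcription start. The *Eng* and *Id3* windows held 1 half-site each, and those of *Bmp4* and *Bmpr2* held none. The GC-rich SMAD motif GGCGCC, which is its own reverse complement, was found once in the *Bmpr2* window, in none of the other 4, and in 7.11% of all windows. A half-site was in 65.6% of all 32851 promoter windows of this length, and the palindrome in 0.0761% of them, which is 25 windows. These matches are descriptions of letters, and binding was not measured.

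Cells with more than 1200 genes were kept, 202 and 236 in the libraries labelled Jag1 ECKO (replicates 1 and 2) and 140 and 246 in those labelled Jag1 ECWT, or 824 of 991. Their summed counts ranged from 859280 to 1779042 per library, and the median per cell from 4212 to 6518. Of 14 clusters, 13 (794 cells) were EC-like and 1 (30 cells) was fibroblast/VSMC-like, where VSMC are vascular smooth muscle cells. One EC-like cluster of 29 cells, led by immediate early genes of the dissociation response, came wholly from Jag1 ECKO replicate 1. Well barcodes recur because plates reuse them, with 324 of 373 barcodes in 2 or more libraries. *Jag1*, the targeted gene, went against the labels. Its level was 158 and 70.8 CPM (counts scaled to a common library total) in the libraries labelled Jag1 ECKO against 32.6 and 26.1 CPM in those labelled Jag1 ECWT, a log2 difference of 1.96 (SE 0.37, adjusted p = 0.428 by edgeR's quasi-likelihood test). The direction of every comparison between labels below is therefore that of the labels only. The cause of the *Jag1* difference was not tested.

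Expression of the 10 genes spanned a wide range. Levels are CPM of summed counts per library. Each molecule was counted once at its 3' end, so they were not divided by gene length. *Bmp4* (chr14:46383520-46390669, minus strand, GENCODE gene model on GRCm38) was the highest, at 1832 and 2271 CPM in the libraries labelled Jag1 ECKO and 2095 and 2371 CPM in those labelled Jag1 ECWT. It had the 43rd highest mean of 18508 genes with a count, and 776 of 824 cells (94.2%) held at least 1 *Bmp4* count. *Gdf6* (chr4:9844372-9862345, plus strand), the other ligand, was at 29.5 and 20.8 CPM against 48.9 and 29.5 CPM, and its 153 counts were in 50 cells (6.07%). Of the ligands of the wider pathway list, *Bmp6* at 82.3 ± 33.7 CPM (SD, n = 4), *Tgfb2* at 34.2 ± 1.90 CPM and *Inhba* at 18.2 ± 7.58 CPM were the next highest, so the mean of *Bmp4* was far above that of any other listed ligand.

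*Nog* (chr11:89300638-89302332, minus strand) was the lowest of the 10, at 7.87 and 1.69 CPM in the libraries labelled Jag1 ECKO and 44.2 and 4.69 CPM in those labelled Jag1 ECWT. Only 11 cells held a *Nog* count, and 28 of the 56 counts were in 1 cell of Jag1 ECWT replicate 1. Without that cell its library was at 11.7 CPM, still the highest of the 4. Other secreted antagonists or latency proteins were far more abundant. Matrix Gla protein (*Mgp*), which binds BMPs, was at 4580 ± 471 CPM, follistatin-like 1 (*Fstl1*) at 1912 ± 381 CPM and the latent TGF-beta binding protein *Ltbp4* at 1740 ± 179 CPM (SD, n = 4).

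Of the 10 genes, the receptor gene *Bmpr2* was the most even between libraries. *Bmpr2* (chr1:59763400-59879014, plus strand) stood at 496 and 490 CPM against 518 and 536 CPM, a spread of 1.09 times from lowest to highest. *Eng* (chr2:32646595-32682669, plus strand) stood at 542 and 342 CPM against 379 and 367 CPM, with Jag1 ECKO replicate 1 above the other libraries. *Acvrl1* (chr15:101128522-101145336, plus strand) stood at 162 and 126 CPM against 135 and 133 CPM. A count of *Bmpr2* was found in 82.9% of cells, of *Eng* in 76.0% and of *Acvrl1* in 47.6%. Among the listed receptors, *Acvr1* (the BMP type I receptor ALK2) was at 200 ± 60.9 CPM, *Tgfbr2* at 190 ± 11.97 CPM and *Bmpr1a* at 122 ± 17.1 CPM (SD, n = 4).

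The inhibitory SMAD genes and the target genes varied more between libraries than *Bmpr2*. *Smad6* (chr9:63953076-64022059, minus strand) stood at 205 and 129 CPM in the libraries labelled Jag1 ECKO and 176 and 209 CPM in those labelled Jag1 ECWT, and *Smad7* at 208 and 88.2 CPM against 165 and 123 CPM. *Id1* (chr2:152736251-152737410, plus strand) stood at 116 and 70.3 CPM against 122 and 89.8 CPM. *Id3* (chr4:136143497-136145755, plus strand) stood at 649 and 369 CPM against 545 and 655 CPM. Jag1 ECKO replicate 2 was the lowest library in 9 of the 10 genes, all but *Bmp4*. The share of all genes that were lowest there was not counted. These 4 genes, *Smad6*, *Smad7*, *Id1* and *Id3*, were among the 9. Among their listed neighbours, the target *Id2* was at 239 ± 49.4 CPM and the SMAD corepressor *Ski* at 316 ± 35.5 CPM (SD, n = 4).

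**Figure D1:**
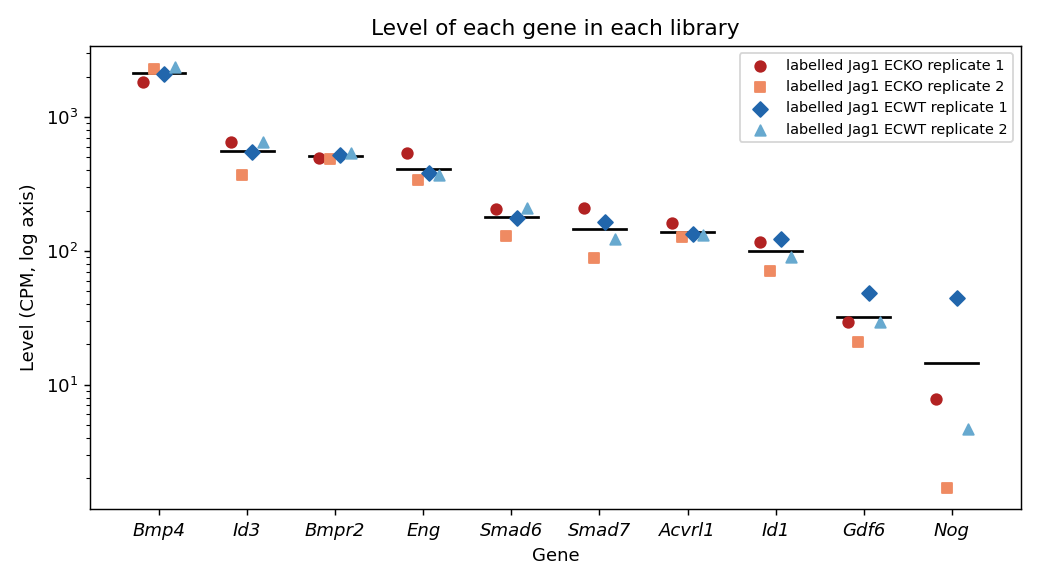
Level of each gene in each library, in CPM on a log axis. Points are the 4 libraries, with marker and color for label and replicate, and bars are the mean of the 4. *Bmp4* stands at 1832 to 2371 CPM, above every other gene in all 4 libraries, and *Nog* ranges from 1.69 to 44.2 CPM.

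In the order of mean level, *Bmp4*, *Id3*, *Bmpr2*, *Eng*, *Smad6*, *Smad7*, *Acvrl1*, *Id1*, *Gdf6* and *Nog*, the ranges over libraries of *Bmp4* and *Id3*, of *Eng* and *Smad6*, of *Acvrl1* and *Id1*, and of *Id1* and *Gdf6* did not overlap. The ranges of the other neighbours overlapped. Within libraries *Id3* was nonetheless above *Eng*, and *Smad6* above *Acvrl1*, in all 4. *Id3* was above *Bmpr2*, *Bmpr2* above *Eng* and *Smad6* above *Smad7* in 3 of 4, and *Smad7* was above *Acvrl1* in 2 of 4.

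Levels were also set side by side by class of cell. In EC-like cells *Bmp4* was at 2264 CPM, against 784 CPM in the 30 fibroblast/VSMC-like cells, and *Acvrl1* was at 144 CPM against 18.1 CPM (5 counts). *Id3* was at 539 CPM against 491 CPM and *Id1* at 94.3 CPM against 83.1 CPM. These are sums over all libraries, and single libraries went the other way. *Bmp4* in the small class ranged from 225 CPM in Jag1 ECKO replicate 1 to 2301 CPM in Jag1 ECWT replicate 1, where EC-like cells were at 2091 CPM. *Id3* was higher in the small class in Jag1 ECKO replicate 2 and Jag1 ECWT replicate 1 (434 against 363 CPM and 1306 against 530 CPM), and *Id1* in replicate 2 of both labels (99.7 against 67.7 CPM and 112 against 89.0 CPM). The difference was not tested, since the small class held between 3 and 12 cells per library. Its cells were deeper, with a median of 7604 counts against 5246, and 29 of the 30 also held a count of the EC marker *Pecam1*, at 1893 CPM against 4836 CPM in EC-like cells. A *Bmp4* count in 86.7% of them (exact 95% binomial interval 69.3 to 96.2%, counting error only) stands beside this, and the part of EC RNA in it was not tested. *Gdf6* and *Nog* were counted in 0 of the 30 cells, which allows a share of cells with a count of up to 11.6% by the same interval. It does not limit the share of cells that express these genes, which had 153 and 56 counts in all.

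Across the 14 clusters, *Bmp4* ran from 4717 CPM in a cluster of 88 cells led by *Sfrp2*, *Thbs1* and *Gdf6* to 318 CPM in a cluster of 17 cells led by the capillary gene *Gpihbp1*. The first of these also held the highest *Smad6* (390 CPM). The second held the highest *Id1* over all libraries (390 CPM, 27 counts), but its 8 cells of Jag1 ECWT replicate 1 were at 141 CPM, below 3 other clusters with at least 5 cells of that library, the highest of which was at 296 CPM. *Eng* was highest, at 1124 CPM, in a cluster of 32 cells led by *Lrg1* and *Fabp4* with *Bmp4* at 734 CPM. *Nog* was at 91.3 CPM in a cluster of 94 cells in which it was a leading gene, and at most 11.70 CPM elsewhere. Of its 49 counts there 36 came from Jag1 ECWT replicate 1, without which the level was 26.8 CPM, and the 31 cells of Jag1 ECKO replicate 2 held none. The clusters were drawn from these same counts, so these levels describe them and are no test.

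**Figure D2:**
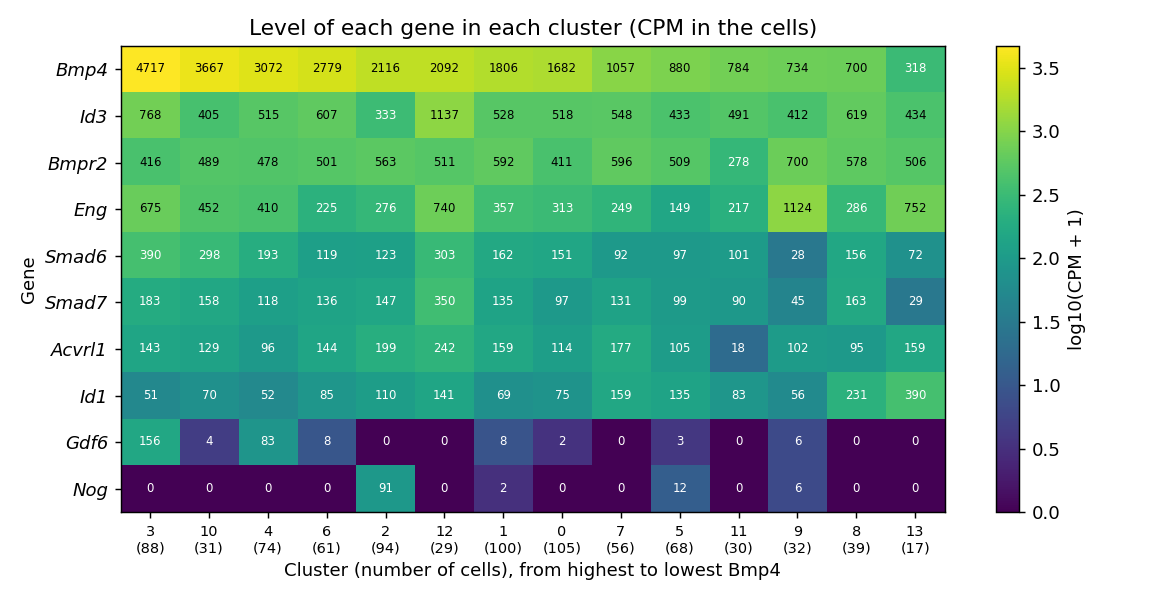
Level of each gene (rows) in each cluster (columns, with the number of cells), in CPM over all libraries. Color shows log10(CPM + 1) and clusters run from the highest *Bmp4* (4717 CPM) to the lowest (318 CPM). *Gdf6* is highest in the cluster highest in *Bmp4*, and *Nog* in another.

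The first comparison asked whether the genes changed between the genotype labels. None of the 9 genes tested was called at an adjusted p under 0.05 (*Nog* fell below the low-count filter). *Gdf6* had the largest log2 difference, -0.61 (SE 0.33), labelled Jag1 ECKO over labelled Jag1 ECWT, with an adjusted p of 0.900. The 4 *Gdf6* values did not separate, since 29.5 CPM occurs under each label. *Eng* was at 0.25 (SE 0.21), *Acvrl1* at 0.12 (SE 0.19), *Bmpr2* at -0.08 (SE 0.16), *Smad6* at -0.22 (SE 0.23), *Smad7* at 0.03 (SE 0.34), *Id1* at -0.18 (SE 0.26), *Id3* at -0.24 (SE 0.25) and *Bmp4* at -0.10 (SE 0.21). Over the 9 genes the median was -0.10, against -0.0010 over all 9730 genes tested. By edgeR 0% of all genes were called at an adjusted p under 0.05, 465 genes had an unadjusted p under 0.05, and DESeq2 called 2 genes. An exact permutation test of 2 libraries against 2 cannot go below p = 0.333.

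Single libraries decided what could be called between labels. The fit without Jag1 ECKO replicate 1 tested 10770 genes and that without Jag1 ECKO replicate 2 tested 9851. Where 1 library was left out, its label had 1 library, which the fit assumes to vary like the 2 of the other label, and leaving out either library labelled Jag1 ECWT called 0 genes. Without Jag1 ECKO replicate 1, 196 genes were called, and they included *Id3* at -0.64 (adjusted p = 0.0382 by edgeR). Without Jag1 ECKO replicate 2, 417 genes were called, and *Id3* was at 0.07 with no member called. *Nog* entered the test without Jag1 ECKO replicate 1 at -3.54 (adjusted p = 0.0029), and with no low-count filter at -2.35 (adjusted p = 0.0072). Without Jag1 ECWT replicate 1, which holds the cell with 28 counts, its log2 difference was -0.13. *Nog* was tested in 8 alternatives and not called in the other 6, with adjusted p of 0.211 to 1.00 by edgeR. Summed VSMC markers (10 of 10 higher in the mean) were at 1604 to 3513 CPM in the libraries labelled Jag1 ECKO and at 417 to 1307 CPM in those labelled Jag1 ECWT. Capillary or lipid-handling markers (5 of 7 higher) were at 250 to 872 against 206 to 218 CPM. Lymphatic markers (4 of 5 higher) were at 60.0 to 83.2 against 37.5 to 51.2 CPM. Markers of the dissociation response (26 of 30 higher) were at 4407 to 6450 against 4176 to 4657 CPM, which overlapped. Their part in these values was not tested.

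Of the other 74 listed BMP and TGF-beta pathway genes, 71 were in the table and 48 passed the filter. None was called between labels. The latent TGF-beta binding protein *Ltbp1*, for example, was at 1.38 (SE 0.26), with an adjusted p of 0.428 by edgeR.

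The second comparison set cells that held a ligand or antagonist transcript against the other cells of the same libraries. Counts were summed per library and class, and library was a term of the fit. Cells with at least 1 *Gdf6* count numbered 8 and 17 in the libraries labelled Jag1 ECKO and 9 and 16 in those labelled Jag1 ECWT. All 50 also held *Bmp4*, as did 94.2% of all cells, and none of the 50 held *Nog*, which was in 1.33% of all cells. They were deeper than the other cells in every library, with median counts of 5781 to 7381 against 4108 to 6499. Of the 50 cells, 29 were in the cluster highest in *Bmp4*. Another 14 were in a cluster of 74 cells with *Bmp4* at 3072 CPM. *Gdf6* was a leading gene of both clusters.

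*Bmp4* was higher in *Gdf6* cells in all 4 libraries. It stood at 5018 and 3665 CPM in the *Gdf6* cells of the libraries labelled Jag1 ECKO against 1618 and 2158 CPM in their other cells. In the libraries labelled Jag1 ECWT it stood at 4268 and 5582 CPM against 1905 and 2159 CPM. The lowest *Gdf6* class was above the highest other class. The log2 difference was 1.21 (SE 0.15, adjusted p = 4.39e-07 by edgeR), and all 15 alternatives gave a call, at 0.92 to 1.35. *Smad6* was higher as well, at 659 and 231 CPM against 174 and 121 CPM in the libraries labelled Jag1 ECKO and at 276 and 314 CPM against 167 and 202 CPM in those labelled Jag1 ECWT. Its classes did not overlap either, though how many of all genes separated in this way was not counted. The log2 difference was 1.06 (SE 0.22, adjusted p = 0.0036), but 42 of the 121 *Smad6* counts of *Gdf6* cells came from Jag1 ECKO replicate 1. Without that library it was 0.74 (adjusted p = 0.203), and in cells thinned to 2837 counts it was 0.60 (adjusted p = 0.798). With no library term it was 1.07 (adjusted p = 0.0982). Without the cluster highest in *Bmp4* it was 0.64 (adjusted p = 0.928).

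None of the receptors and targets among the 10 genes was called in *Gdf6* cells. *Bmpr2* was lower in all 4 libraries at -0.58 (SE 0.19, adjusted p = 0.165), and with no low-count filter it was called at -0.76 (adjusted p = 0.0266). *Id1* was lower in all 4 at -0.98 (SE 0.37, adjusted p = 0.303) and *Eng* was higher in all 4 at 0.39 (SE 0.18, adjusted p = 0.547 by edgeR). *Acvrl1* was at -0.16 (SE 0.27), *Id3* at 0.12 (SE 0.17) and *Smad7* at 0.11 (SE 0.26). Thus 2 of 8 genes tested were called, where 1.27% of all 6512 genes were (83 genes). Their median was 0.12, against -0.02 over all genes.

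Of 30 other pathway genes tested, 2 rose and 1 fell in *Gdf6* cells. Thrombospondin 1 (*Thbs1*), which activates latent TGF-beta, rose by 2.19 (SE 0.17), and the TGF-beta target *Ctgf* rose by 1.47 (SE 0.27). *Mgp* fell by 1.10 (SE 0.15). *Thbs1* and *Mgp* were called in all 15 alternatives and *Ctgf* in 11 of 15, the exceptions being without Jag1 ECWT replicate 2, in thinned cells (adjusted p = 0.567 by edgeR), with no library term (0.258) and without the cluster highest in *Bmp4* (0.301). Among all other genes with 1 direction in 4 libraries, the largest increases were those of *Sfrp2* (4.52), a secreted Wnt modulator, *Nrg1* (4.46), *Adam33* (3.44), *Aldh1a1* (2.36) and *Lpar1* (2.25). The largest decreases were those of *Map1b*, at 0 CPM in all 4 *Gdf6* classes, *Myh11* (-4.28), *Igfbp5* (-3.14), *Adra2a* (-3.08) and *Slc6a6* (-2.92). Without 1 library at a time *Aldh1a1* (adjusted p up to 0.0693) and *Slc6a6* (up to 0.0757) lost their call. Without the cluster highest in *Bmp4*, *Aldh1a1* was at 1.46 (0.927) and *Slc6a6* was not called (0.0634), nor was *Slc6a6* with no library term (0.152) or without the capillary clusters (0.0707). *Myh11* was not called by DESeq2 (0.235) or with no library term (0.258), *Igfbp5* with no library term (0.260), or *Adra2a* in thinned cells (0.0648) or without the cluster highest in *Bmp4* (0.107). *Myh11* is the smooth muscle myosin heavy chain, and 0 of the 50 *Gdf6* cells were in the fibroblast/VSMC-like cluster. Summed fibroblast markers were at 2556 to 4206 CPM in *Gdf6* cells against 1399 to 2284 CPM, with 4 of 10 higher and *Pdgfra* at 0. Summed EC markers were at 10642 to 11887 against 12640 to 13806 CPM, with 3 of 10 higher and *Kdr* at 0. VSMC markers summed to 635 to 1394 against 331 to 3698 CPM, with 1 of 10 higher and *Cnn1* at 0. Capillary or lipid-handling markers summed to 78.4 to 246 against 208 to 925 CPM, with 2 of 7 higher. Lymphatic markers summed to 21.7 to 43.6 against 38.6 to 88.1 CPM, with 0 of 5 higher. Their part in the result was not tested.

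Cells with a *Nog* count were few, 2 and 1 in the libraries labelled Jag1 ECKO and 5 and 3 in those labelled Jag1 ECWT, and 6 of the 11 were in the cluster in which *Nog* was a leading gene. *Bmp4* was at 414 and 296 CPM in them against 1849 and 2279 CPM in the other cells of the libraries labelled Jag1 ECKO. In the libraries labelled Jag1 ECWT it was at 815 and 2182 CPM against 2136 and 2375 CPM. Per cell, 3 of the 11 *Nog* cells had no *Bmp4* count and 5 had between 1 and 4. The other 3 had 20, 29 and 35 counts. The log2 difference of *Bmp4* was -1.89 (SE 0.50, adjusted p = 0.0403 by edgeR), where the median of all 5893 genes was -0.59 with this scaling. With RLE scaling, which put that median at -0.16, it was -1.39 (adjusted p = 0.135), by DESeq2 it was -1.51 (adjusted p = 0.139), and without Jag1 ECKO replicate 1 it was -1.65 (adjusted p = 0.881). Without Jag1 ECWT replicate 1 it was -2.15 (adjusted p = 0.525), and with no library term -1.39 (adjusted p = 0.0978). In thinned cells it was -4.05 and in cells with 2 or more *Nog* counts -5.22, and 8 of 13 alternatives gave a call.

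*Bmp4* was the 1 member called of 8 tested in *Nog* cells, where 0.356% of all genes were called (21 genes). *Id3* was lower in all 4 libraries at -1.68 (SE 0.56, adjusted p = 0.254) and *Smad6* in all 4 at -1.50 (SE 0.73, adjusted p = 0.462 by edgeR). In Jag1 ECKO replicate 2, however, the *Nog* class was 1 cell of 6768 counts with 0 counts of both genes, a value at the floor. In the 6 cells with 2 or more *Nog* counts, *Id3* was at -2.45 (adjusted p = 0.0092; in thinned cells -3.42, adjusted p = 0.0291) and *Bmpr2* at -2.39 (adjusted p = 0.0140). In that setting the median of all 5522 genes was -1.26, and of 226 genes called 8 were higher. *Smad7* was at -0.95 (SE 0.72), *Acvrl1* at -0.61 (SE 0.69), *Bmpr2* at -0.50 (SE 0.50), *Eng* at -0.38 (SE 0.52) and *Id1* at -0.07 (SE 0.72). The members' median was -0.78. Of 30 other pathway genes *Thbs1* fell by 4.18 (SE 0.79), with an adjusted p of 0.151 by edgeR without Jag1 ECWT replicate 1. Beyond the list, *Net1*, a RhoA exchange factor, rose by 2.44 (SE 0.51) and stood at 443 to 1816 CPM in the *Nog* classes against 82.9 to 187 CPM. *Acta2* (-6.15), *Arrb1* (-4.29), *Dcn* (-4.27) and *Itga9* (-3.19) were lower. *Net1* was not called without Jag1 ECKO replicate 1 (adjusted p = 0.358) or Jag1 ECWT replicate 1 (0.525), and *Arrb1* and *Itga9* were each lost in 3 of 4 such fits (up to 0.627 and 0.699). *Acta2* and *Dcn* were called in all 13 alternatives. *Acta2* and *Dcn* are a VSMC and a fibroblast marker, and none of the 11 cells was in the fibroblast/VSMC-like cluster. Summed VSMC markers were at 0 to 375 CPM in the *Nog* classes against 428 to 3551 CPM, with 0 of 10 higher and 6 at 0, among them *Cnn1* and *Myl9*. Summed fibroblast markers were at 148 to 1023 against 1484 to 2342 CPM, with 2 of 10 higher and *Lum*, *Col1a1*, *Pdgfra* and *Dpt* at 0. Their part in the result was not tested.

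**Figure D3:**
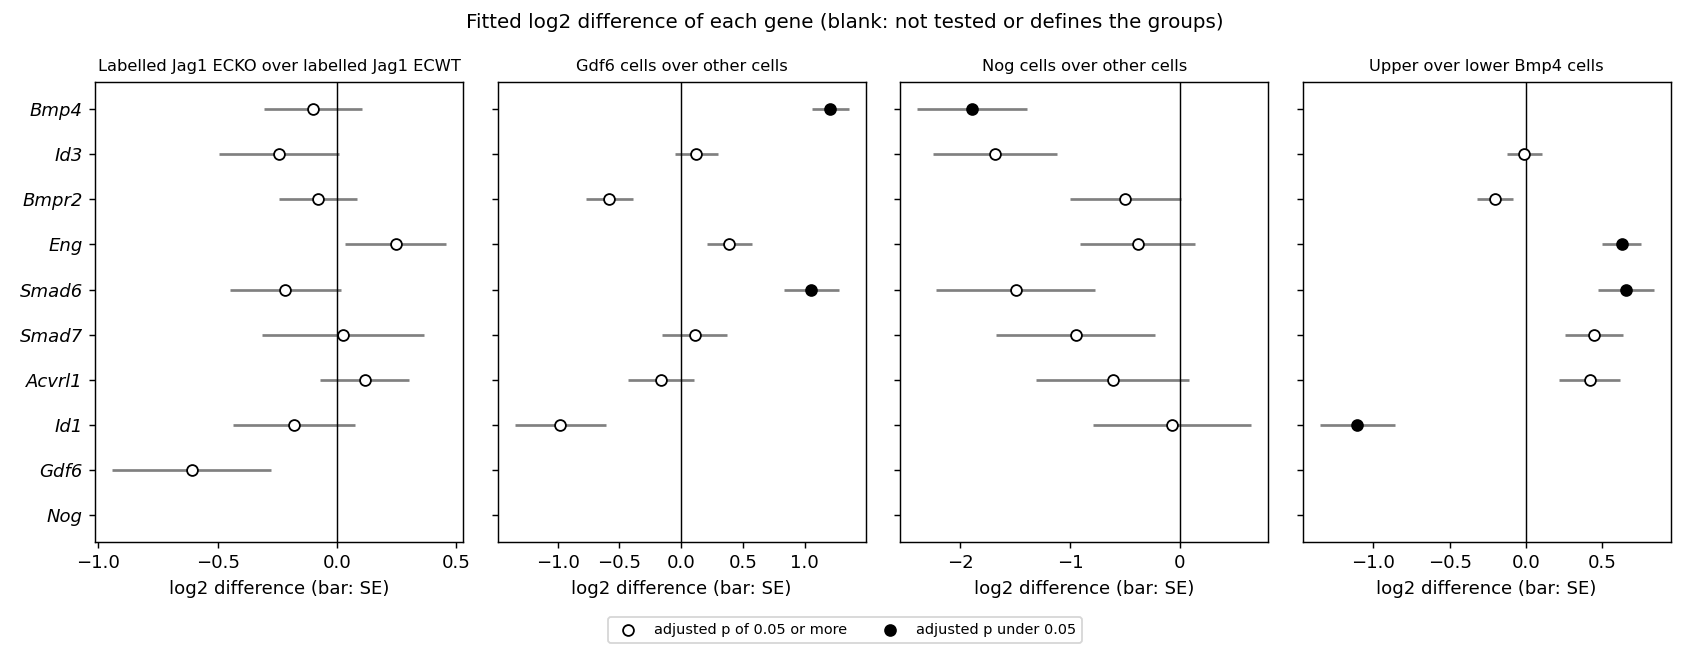
Fitted log2 difference of each gene in 4 comparisons, with the SE as a bar and filled points at an adjusted p under 0.05. *Bmp4* is at 1.21 in *Gdf6* cells and at -1.89 in *Nog* cells, and *Eng* (0.63) and *Id1* (-1.11) lie on opposite sides of 0 between cells of upper and lower *Bmp4* count.

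Cells with and without *Bmp4* were uneven classes, because *Bmp4* was counted in 179 of 202, 232 of 236, 125 of 140 and 240 of 246 cells. The class without *Bmp4* had 23, 4, 15 and 6 cells and was shallower in 3 of 4 libraries. None of 7 members was called, where 1.29% of all 6298 genes were (81 genes). *Smad6* was higher in *Bmp4* cells in all 4 libraries at 1.18 (SE 0.40, adjusted p = 0.162 by edgeR), and it passed the threshold in EC-like cells alone at 1.42 (adjusted p = 0.0497) and over all deposited cells at 1.34 (adjusted p = 0.0239). In thinned cells it was 0.19 (adjusted p = 0.937), and 2 of 13 alternatives gave a call. *Smad7* was at 0.70 (SE 0.41), *Id3* at 0.49 (SE 0.27), *Eng* at 0.15 (SE 0.28), *Acvrl1* at 0.11 (SE 0.38), *Bmpr2* at -0.19 (SE 0.26) and *Id1* at -0.66 (SE 0.39). Of 29 other pathway genes 3 rose and none fell. They were *Acvr1* by 1.504 (SE 0.41), *Fstl1* by 1.16 (SE 0.23) and *Thbs1* by 3.59 (SE 0.40). *Thbs1* was called in all 13 alternatives, *Acvr1* in 6 of 13 and *Fstl1* in 9 of 13, and without 1 library at a time the adjusted p reached 0.313 for *Acvr1* and 0.118 for *Fstl1*. The other genes named by the rule were higher for *Gm10400* (34.9 to 92.4 CPM against 0 CPM in all 4 classes without *Bmp4*), *Coch* (3.56), *Ahsg* (2.89) and *Cyr61* (2.71) and lower for *Gucy1b3* (-3.39), *Alpl* (-3.37), *Akap12* (-2.96), *Slc6a6* (-2.64) and *Sparcl1* (-2.31). Of these 12 genes, 10 lost their call without 1 library or another, the exceptions being *Thbs1* and *Cyr61*. *Gm10400* was lost without each of the 4 libraries in turn (adjusted p of 0.0730 to 0.468). *Alpl* and *Sparcl1* were also leading genes of the cluster led by *Gpihbp1*. Capillary or lipid-handling markers summed to 115 to 852 CPM in *Bmp4* cells against 113 to 4045 CPM, with 1 of 7 higher. VSMC markers summed to 451 to 2488 against 28.9 to 12956 CPM, with 1 of 10 higher. Of 5 lymphatic markers 0 were higher, and of 10 EC markers 5 were. The part of these markers in the result was not tested.

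Since nearly all cells held *Bmp4*, cells were also split by how much they held, a comparison added after the data were seen. Each cell was thinned to 2837 counts, and cells above their library's median *Bmp4* count (4 or 5) were set against the others, 72 against 94, 106 against 117, 59 against 68 and 111 against 115 cells. *Eng* was higher in the upper class in all 4 libraries. It stood at 627 and 399 CPM against 424 and 256 CPM in the libraries labelled Jag1 ECKO and at 532 and 435 CPM against 342 and 273 CPM in those labelled Jag1 ECWT. The log2 difference was 0.63 (SE 0.13, adjusted p = 5.93e-04 by edgeR). Without the cluster highest in *Bmp4* it was 0.40 (adjusted p = 0.141), and in the 11 other alternatives it was called.

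*Id1* went the other way. It stood at 44.1 and 29.9 CPM in the upper class against 157 and 117 CPM in the libraries labelled Jag1 ECKO, and at 114 and 66.7 CPM against 135 and 110 CPM in those labelled Jag1 ECWT. It was lower in all 4 libraries and by least in Jag1 ECWT replicate 1, on 9 to 21 counts per upper class. The log2 difference was -1.11 (SE 0.25, adjusted p = 0.0022 by edgeR). It was not called by DESeq2 (-1.15, adjusted p = 0.195), without Jag1 ECKO replicate 1 (-0.92, adjusted p = 0.0806) or without Jag1 ECWT replicate 2 (-1.28, adjusted p = 0.0598). Capillary markers moved with the split, at 59.9 to 406 CPM summed in the upper class against 392 to 1121 CPM, with 1 of 7 higher and *Rgcc* at 0. Without the 2 capillary or lipid-handling clusters, *Id1* was at -0.95 (adjusted p = 0.0200) and *Eng* at 0.81 (adjusted p = 1.52e-05).

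*Smad6* was higher in the upper class at 255 and 203 CPM against 150 and 84.4 CPM, and at 161 and 225 CPM against 145 and 172 CPM. The log2 difference was 0.66 (SE 0.18, adjusted p = 0.0269 by edgeR), and 6 of 12 alternatives gave a call. It was not called by DESeq2 (0.66, adjusted p = 0.602) or without Jag1 ECKO replicate 1 (0.61, 0.189), Jag1 ECKO replicate 2 (0.46, 0.338) or Jag1 ECWT replicate 2 (0.77, 0.139). Nor was it without the cluster highest in *Bmp4* (0.50, 0.301) or the capillary clusters (0.58, 0.0710). On unthinned counts it was 1.04 (adjusted p = 3.44e-06 by edgeR). *Id3*, the other target, was level at -0.01 (SE 0.12), with 641 and 336 CPM against 649 and 374 CPM and 603 and 629 CPM against 513 and 665 CPM. *Smad7* was at 0.45 (SE 0.19, adjusted p = 0.299), *Acvrl1* at 0.42 (SE 0.20, adjusted p = 0.397) and *Bmpr2* at -0.20 (SE 0.12, adjusted p = 0.562). Thus 3 of 7 members were called, where 3% of all 4693 genes were (141 genes), and the members' median was 0.42 against 0.0067 over all genes.

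In 4 bins of *Bmp4* count, the *Eng* level in the top bin (10 or more counts, 29 to 60 cells per library) was 811 and 396 CPM in the libraries labelled Jag1 ECKO and 669 and 558 CPM in those labelled Jag1 ECWT. In the lowest bin (0 to 1 counts, 37 to 50 cells) it was 437 and 282 CPM, and 371 and 201 CPM. *Id1* was at 197 and 150 CPM, and 181 and 168 CPM, in the lowest bin. In the top bin it was at 35.2 and 37.1 CPM, and 109 and 52.9 CPM. *Smad6* was highest in the top bin in all 4 libraries, at 219 to 352 CPM, and lay between 62.2 and 213 CPM in the other bins. The bins describe the split above and were not tested.

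**Figure D4:**
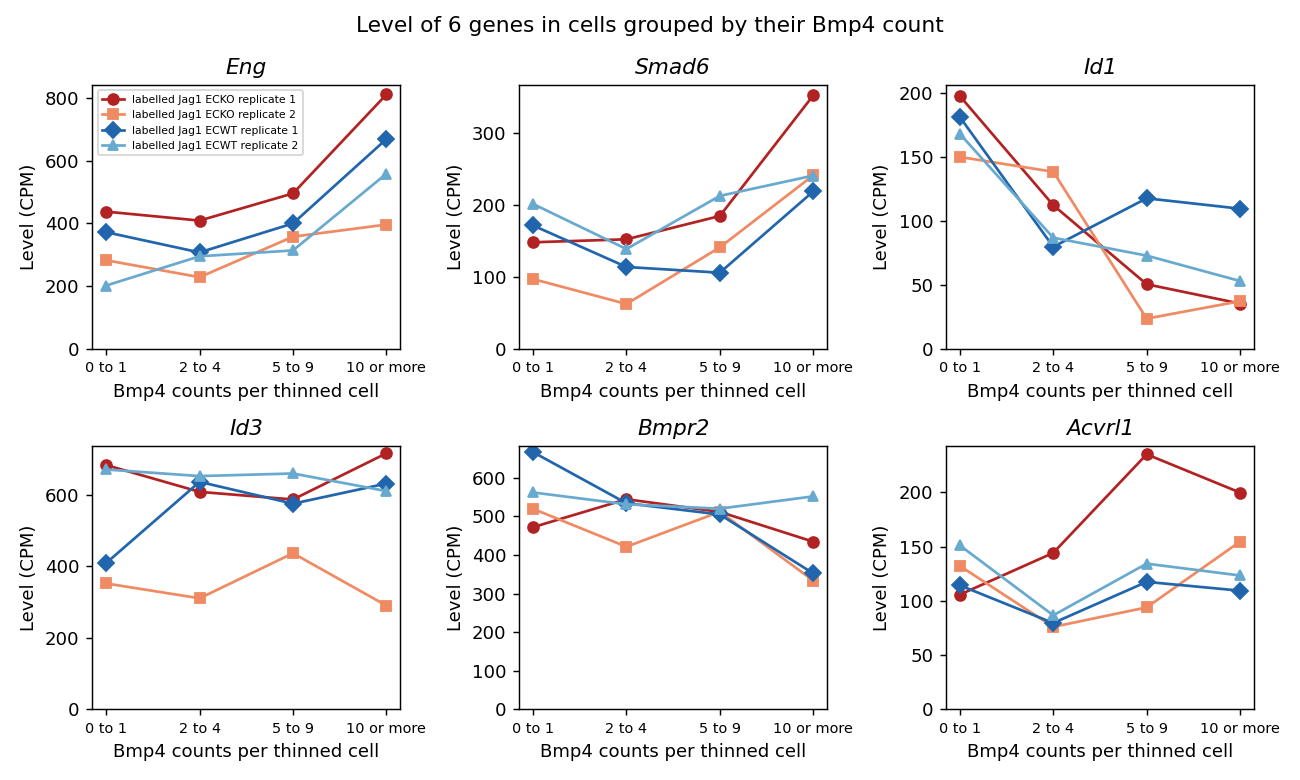
Level in CPM of 6 genes in thinned cells grouped by their *Bmp4* count, with 1 line per library. *Eng* and *Smad6* are highest at 10 or more *Bmp4* counts in all 4 libraries, *Id1* is highest at 0 to 1 counts in all 4, and *Id3* has no common direction.

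Of 25 other pathway genes in the *Bmp4* split, 5 rose and 1 fell. *Thbs1* rose by 2.65 (SE 0.15), the ligand *Bmp6* by 1.12 (SE 0.24), *Ctgf* by 1.10 (SE 0.28), the latent TGF-beta binding protein *Ltbp3* by 0.78 (SE 0.17) and *Fstl1* by 0.63 (SE 0.09), and *Mgp* fell by 0.38 (SE 0.07). *Ctgf* was higher in 3 of 4 libraries, and the other genes moved 1 way in all 4. Without Jag1 ECWT replicate 2, *Bmp6* was at 1.06 (adjusted p = 0.0981 by edgeR) and *Ctgf* at 0.53 (0.715), and *Ctgf* was at 0.92 without Jag1 ECWT replicate 1 (0.0632). *Ctgf* was at 2.09 without Jag1 ECKO replicate 1 and at 2.11 in EC-like cells, and was called in both. By DESeq2, *Bmp6* (0.233), *Ctgf* (1.61, 0.797) and *Ltbp3* (0.0985) were not called. Without the cluster highest in *Bmp4*, *Bmp6* was at 0.95 (adjusted p = 0.0581) and *Ctgf* at 0.59 (0.536), and on unthinned counts *Ctgf* was not called (0.0525). Beyond the list, *Sfrp2* (3.18), the chemokine *Cxcl1* (2.67), *Coch* (2.45) and *Lpar1* (2.28) were higher, and *Slc6a6* (-2.95), the fatty acid transporter *Cd36* (-2.93), *Sparcl1* (-2.89), *Fabp4* (-2.12) and *Igfbp5* (-1.95) were lower. Without the capillary or lipid-handling clusters *Fabp4* was at -0.95 (adjusted p = 0.0713 by edgeR), and by DESeq2 *Igfbp5* was not called (0.540).

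Whether these contrasts differed between the genotype labels was tested by an interaction term. No member was called for *Gdf6*, *Nog* or *Bmp4* cells, where 0.0154%, 0% and 0.159% of all genes were called. For the *Bmp4* split none of 7 members was called either, where 0.0426% of all 4693 genes were (2 genes, *Ctgf* and *Dcn*, named after their values were seen). *Id1*, which was lower by more in the libraries labelled Jag1 ECKO, had an interaction of -1.38 (SE 0.48, adjusted p = 0.970 by edgeR, unadjusted p = 0.0068). For *Nog*, 209 genes had an unadjusted p under 0.05 and DESeq2 called 0.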

How the data were processed

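Single cells were sorted from aortas digested with enzymes into plates of 384 wells, and libraries were made by SORT-seq. Per the submitters' processing notes and the methods, reads were aligned by the authors to GRCm38 with STAR, whose version is not given in the sources used here. The table deposited by the authors holds expected counts, that is transcript numbers estimated for each gene in each cell, with no scaling between cells. Inverting the UMI correction (4096 UMIs) gave whole numbers to within 3.6e-12. The values were rounded to whole numbers here. Free RNA in wells was not corrected for, and no doublet caller was run.

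Cells with more than 1200 genes were kept. Clusters came from Seurat 5.3.0 (2000 variable genes, 12 components, resolution 2.3, 14 clusters) in R 4.3.3. A class was named from marker genes by a threshold set after the clusters were seen. Counts were summed per library, or per library and class, and tested with edgeR 4.0.16 (TMM, filterByExpr, quasi-likelihood test, Benjamini-Hochberg adjustment over all genes tested, threshold 0.05), with DESeq2 1.42.0 as an alternative. SE is the log2 difference divided by the square root of its F. Intervals for shares are exact binomial at 95%. Depth limits *Nog* and *Gdf6* most, with 56 and 153 counts in all.

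The members and gene lists were chosen with earlier results of these data known. Named genes were the 10 members, *Jag1*, pathway genes past the threshold, the 3 highest pathway genes per role, up to 5 further genes per direction in each contrast with 1 sign in all 4 libraries, and markers that moved with a result. *Ltbp1* and the leading genes of clusters were named after their values were seen. Alternatives changed scaling, filter, tool, cells, depth and class, and left out each library. The tests were tried on simulated data. Positions are from GENCODE M21 on GRCm38. An item withheld for evaluation is not reported here.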

Additional observations from a re-analysis of the deposited data

Results flagged for a closer look

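The *Bmp4* split of the TGF-beta target *Ctgf* differed between the genotype labels. In the libraries labelled Jag1 ECKO, *Ctgf* was at 181 and 63.2 CPM in cells above the median *Bmp4* count against 199 and 36.2 CPM in the others. In those labelled Jag1 ECWT it was at 89.6 and 203 CPM against 5.18 and 33.7 CPM, on 15 and 64 counts against 1 and 11. The interaction, the log2 difference of the split under Jag1 ECKO less that under Jag1 ECWT, was -2.643 (SE 0.52, adjusted p = 0.0362 by edgeR). It was called with RLE scaling (adjusted p = 0.0284) and with no low-count filter (0.0030), but not in EC-like cells alone (-2.67, adjusted p = 0.254) or by DESeq2 (-2.70, adjusted p = 1.00). *Jag1* itself went against the labels, so the direction is that of the labels only, and the cause was not tested.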

How the results depend on the processing

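Counts of genes called depended on single libraries and on depth. Leaving out 1 library at a time gave 0 to 417 genes between labels, 3 to 43 in *Nog* cells, 48 to 103 in *Gdf6* cells, 14 to 89 in *Bmp4* cells and 62 to 148 in the *Bmp4* split. Between labels DESeq2 called 2 and the fit with no filter 127, and the 9 other alternatives with all libraries called 0. *Nog* cells gave 226 with 2 or more counts, 43 with no filter, 48 with no library term and 66 when thinned. *Gdf6* cells gave 50 by DESeq2, 41 with no library term, 31 when thinned and 35 without the cluster highest in *Bmp4*. *Bmp4* cells gave 24 by DESeq2, 27 with no library term and 41 when thinned, and the split gave 48 by DESeq2, 231 unthinned and 85 without that cluster. The interaction gave 0, 1 and 5 genes for *Bmp4* 0, 0 and 2 for *Gdf6* and 0, 1 and 6 for the split by DESeq2, in EC-like cells and with no filter. Thinning leaves fewer genes to test. The other causes were not tested.

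No member that was called with all libraries and the settings of the report changed sign. Of those not called there, the log2 differences that changed sign ranged, without 1 library at a time, between labels from -0.060 to 0.51 for *Eng*, -0.016 to 0.25 for *Acvrl1*, -0.52 to 0.044 for *Smad6*, -0.62 to 0.51 for *Smad7*, -0.50 to 0.12 for *Id1*, -0.64 (called, without Jag1 ECKO replicate 1) to 0.074 for *Id3* and -0.32 to 0.089 for *Bmp4*. In *Bmp4* cells they ranged from -0.042 to 0.49 for *Eng*, -0.21 to 0.43 for *Acvrl1* and -1.07 to 0.14 for *Id1*, in *Nog* cells from -0.82 to 0.18 for *Id1*, and in the split from -0.076 to 0.028 for *Id3*. *Smad7* between labels was at -0.019 above 1500 genes, -0.067 when thinned and -0.10 without the dissociation cluster. In *Nog* cells *Eng* was at 0.09 and *Id1* at 0.36 with RLE scaling, and *Id1* at 1.01 when thinned, 0.075 with 2 or more counts and 0.15 with no library term. In *Gdf6* cells *Acvrl1* was at 0.24 and *Id3* at -0.53 when thinned, *Smad7* at -0.075 and *Id3* at -0.062 with no filter, and *Eng* at -0.21, *Smad7* at -0.48 and *Id3* at -0.18 without the cluster highest in *Bmp4*. In *Bmp4* cells *Acvrl1* was at -0.0034 by DESeq2 and *Bmpr2* at 0.057 with no filter, and in the split *Id3* was at 0.049 unthinned. Thinning was run between labels and in *Nog*, *Gdf6* and *Bmp4* cells. The fits without the dissociation cluster were run on these and the split, and those without the capillary clusters or the cluster highest in *Bmp4* in *Gdf6* cells and the split alone. The fits without clusters, the interaction alternatives and the *Bmp4* split were added after the data were seen. *Jag1* passed the threshold between labels with no filter, by DESeq2 and without either library labelled Jag1 ECKO. No paired analysis was possible between labels because their replicate numbers were given here in accession order and pair nothing. The contrasts of cells were paired within library by the library term. Of 46 calls of other named genes in these contrasts, a gene counting once per contrast, 21 were kept in every alternative that gave a value.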
